A study of Mus musculus with 6 samples.

Results

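The 10 transcription factors Cdx2, Eomes, Gata3, Gata2, Tfap2c, Elf5, Hand1, Ascl2, Tead4 and Esx1 act in the trophectoderm, the outer layer of the blastocyst, and in the trophoblast that it forms. They were taken by gene symbol from the array annotation, which gave each of them 1 probeset of its own, and all 10 were among the 19938 genes compared. The arrays measured mouse embryonic stem (ES) cells with the 2C::tomato reporter, sorted into 3 reporter-positive and 3 reporter-negative samples. All 6 samples were labelled wild type and had been grown on gelatin. Vehicle or 4-hydroxytamoxifen, which deletes Kdm1a in this line, is named for the study, and the labels do not say which of them these samples received. The question was whether genes of the trophectoderm differ with the reporter, because published work with it describes cells of wider fate potential that can also contribute to extraembryonic tissue. In that work the reporter is driven by a promoter of an endogenous retrovirus that is active in the early embryo, so it marks a state of ES cells and not an embryo.

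In the mouse embryo the outer cells form trophectoderm and the inner cells form the pluripotent mass from which ES cells are derived. Tead4 with its coactivator Yap1 turns on Cdx2 and Gata3 in outer cells, where Hippo signalling is low, and Cdx2 and the pluripotency factor Oct4 (Pou5f1) repress each other. Eomes, Elf5 and Tfap2c then help to keep trophoblast stem cells, while Ascl2, Hand1, Gata2 and Esx1 act in the later placental lineages. ES cells seldom form trophoblast in culture.

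Sequence upstream of 4 of the factors is shown because 3 of them carry the results given further on (Gata3, Ascl2 and Esx1) and the fourth, Cdx2, is the gene that opposes Oct4. Each run is the 250 bases before the annotated start, 5′ to 3′ on the gene's own strand, from RefSeq on GRCm38.p6, in which 7 of the 10 factors had at least 1 window. Capitals mark matches, on either strand, to motifs of the families to which the factors belong. The motif searched for GATA factors was AGATAA. For the TEAD family, which includes Tead4, it was GGAATG. For AP-2 factors such as Tfap2c the letters were GCCNNNGGC. Helix-loop-helix proteins such as Ascl2 and Hand1 were given the E-box CANNTG. The ETS family of Elf5 was given CCGGAA, and the CDX family was given TTTATNG. The T-box family, with Eomes, was given AGGTGT, and the octamer of Oct4 and its relatives was searched as ATGCAAAT.
Cdx2, chr5:147307250-147307499, minus strand: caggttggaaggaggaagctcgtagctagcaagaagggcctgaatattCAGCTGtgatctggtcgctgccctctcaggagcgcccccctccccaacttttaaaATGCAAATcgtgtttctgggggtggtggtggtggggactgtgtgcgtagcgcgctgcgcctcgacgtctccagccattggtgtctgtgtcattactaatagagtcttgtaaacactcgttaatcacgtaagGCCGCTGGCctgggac
Gata3, chr2:9878601-9878850, minus strand: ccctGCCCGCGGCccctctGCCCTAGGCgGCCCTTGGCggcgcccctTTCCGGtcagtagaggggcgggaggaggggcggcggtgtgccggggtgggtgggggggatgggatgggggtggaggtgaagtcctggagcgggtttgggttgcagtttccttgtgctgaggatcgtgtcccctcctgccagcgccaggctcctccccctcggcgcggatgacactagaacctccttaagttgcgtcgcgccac
Ascl2, chr7:142969265-142969514, minus strand: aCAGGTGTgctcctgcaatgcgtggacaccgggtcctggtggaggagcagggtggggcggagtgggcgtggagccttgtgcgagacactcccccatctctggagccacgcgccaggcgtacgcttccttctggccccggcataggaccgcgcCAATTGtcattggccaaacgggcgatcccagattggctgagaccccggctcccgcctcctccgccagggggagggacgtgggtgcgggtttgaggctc
Esx1, chrX:137120327-137120576, minus strand: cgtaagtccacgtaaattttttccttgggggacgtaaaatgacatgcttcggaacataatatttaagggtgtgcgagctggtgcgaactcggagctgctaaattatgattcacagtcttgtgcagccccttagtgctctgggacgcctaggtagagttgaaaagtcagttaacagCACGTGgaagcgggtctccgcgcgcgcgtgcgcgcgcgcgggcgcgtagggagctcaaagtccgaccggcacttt

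The Cdx2 window held the octamer, an AP-2 match and an E-box. Of all 32851 windows of that length, 1.6% held the octamer, 13.7% the AP-2 motif and 66.2% an E-box. The Gata3 window held 3 AP-2 matches and 1 ETS match, a motif found in 12% of windows. The Ascl2 window held 2 E-boxes, the first of which overlaps a T-box match, found in 11.8% of windows, and the Esx1 window held 1 E-box. None of the 9 windows of the 7 factors held the GATA motif, found in 9.99% of all windows, or the CDX motif, found in 9.81%. The TEAD motif, found in 12.6%, occurred in 2 of the 9, at Elf5 and Gata2. A match describes letters and does not show that a factor binds there.

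The sort and the cell type were checked on other genes. All values are log2 expression after RMA normalization by the authors, so a difference of 1 is a 2-fold change. Levels of different genes were compared only to call a gene bright or dim. Differences are positive minus negative. The pluripotency genes that define ES cells were bright on every array, with Pou5f1 between 12.08 and 12.69, Nanog between 12.54 and 12.98 and Sox2 between 11.57 and 12.46. Of 19 genes listed for the two-cell embryo 13 were measured, and all 13 differed upward by at least 2-fold. Zfp352, one of them, differed by 3.06 in the pair of arrays numbered 1, by 5.85 in pair 2 and by 2.14 in pair 3. That list overlaps an earlier account of these same data, so its rise is not an independent check of the sort. No gene of the whole array passed the test, the two-cell genes included (limma, smallest adjusted p 0.910). Nothing in the labels ties the samples of a group to separate cultures, and the p-values therefore reflect sample-to-sample spread that may be technical. In sorted bulk samples a smaller share of cells that express a gene and less RNA per cell cannot be told apart.

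No trophectoderm factor passed the test of reporter-positive against reporter-negative cells. With limma, 0 of 10 passed an adjusted p under 0.05, against 0% of all genes, and 0 of 10 had an unadjusted p under 0.05, against 4.4% of all genes. The factors were higher for 4 and lower for 6, with a median log2 difference of -0.09, and over all genes 39.8% were higher and the median was -0.04. The differences ran from -0.32 for Tfap2c to 0.50 for Gata3, and none reached 2-fold. The 95% interval of the difference, taken for each gene alone, included 0 for all 10 and lay within 2-fold in both directions for 8. It reached beyond 2-fold for Gata3 and Esx1.

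**Figure D1:**
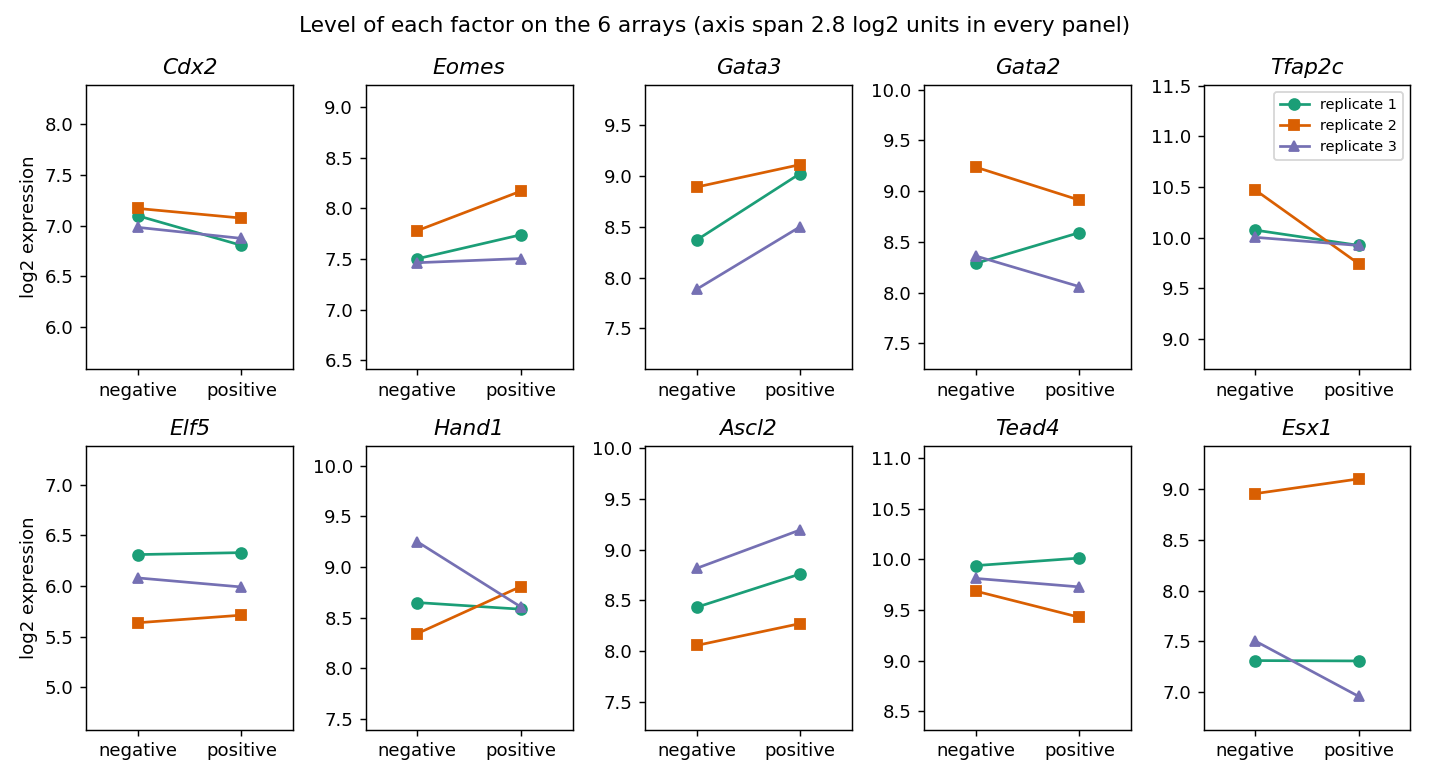
Log2 expression (vertical axis, 2.8 log2 units in every panel) of the 10 factors in negative and positive samples, 1 point per array, with lines joining arrays of the same replicate number. The lines of Gata3, Eomes and Ascl2 all rise from negative to positive and those of Cdx2 and Tfap2c all fall, while replicate 2 of Esx1 lies at 8.96 and 9.10, above the other arrays.

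Gata3, a zinc finger factor that acts beside Cdx2 in specifying trophectoderm, had the largest difference of the 10. Its log2 level was 8.37, 8.89 and 7.89 in negative arrays 1, 2 and 3 and 9.03, 9.11 and 8.50 in positive arrays 1, 2 and 3. Each positive array lay above the negative array of its number, and the groups overlapped because negative array 2 was above positive array 3. The mean was 8.88 ± 0.33 over the 3 positive arrays (SD, n = 3) and 8.38 ± 0.50 over the 3 negative ones (SD, n = 3), 1.41-fold apart. The log2 difference of 0.50 (SE 0.28) did not pass (limma adjusted p = 0.910), and its 95% interval ran from -0.16 to 1.16. By pair it was 0.66, 0.22 and 0.62. Single arrays moved this value, to 0.25 when negative array 3 was left out and to 0.75 when negative array 2 was, and weighting the arrays by quality gave 0.86 (limma adjusted p = 0.0760).

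Gata2, a second GATA factor, which acts in trophoblast giant cells and in blood, had levels of 8.29, 9.24 and 8.36 in negative and 8.59, 8.91 and 8.06 in positive arrays. Replicate 2 was the highest array of each group. The log2 difference of -0.11 (SE 0.31) did not pass (limma adjusted p = 0.976), and the pairs went both ways, with 0.30 in pair 1, -0.32 in pair 2 and -0.30 in pair 3. The sign turned to 0.02 with array weights, 0.20 without negative array 2 and 0.12 without positive array 3. Gata4, a relative of primitive endoderm, differed by -0.46 (SE 0.29), also without passing.

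Cdx2, the homeobox factor that marks trophectoderm and restrains Pou5f1 there, was lower in the positive array of every pair. Its log2 level was 7.10, 7.17 and 6.98 in negative arrays and 6.80, 7.07 and 6.87 in positive arrays. Positive array 2 lay above negative array 3, so the groups overlapped. The difference of -0.16 (SE 0.12) did not pass (limma adjusted p = 0.910), and its 95% interval of -0.45 to 0.12 was the narrowest of the 10. Pou5f1, its counterpart, differed by -0.08 (SE 0.19), without passing.

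Eomes, a T-box factor needed for trophoblast stem cells and also used in the primitive streak, had levels of 7.50, 7.78 and 7.46 in negative and 7.74, 8.17 and 7.50 in positive arrays. The highest array was positive array 2, and the groups overlapped. The difference of 0.22 (SE 0.19) did not pass (limma adjusted p = 0.917), with pairs at 0.24, 0.39 and 0.04, and without positive array 2 it was 0.04. Elf5, an ETS factor that closes the loop with Cdx2 and Eomes in trophoblast stem cells, stood at 6.31, 5.64 and 6.08 in negative and 6.33, 5.71 and 5.99 in positive arrays. The arrays of the same number differed by 0.09 or less, while arrays of a group spanned 0.67 and 0.62. Elf5 was the 1 factor among the dimmest 30% of genes. Its difference was 0.0015 (SE 0.22, limma adjusted p = 1.00), with a sign that turned with median centring to -0.0078.

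Tead4, the partner of Yap1 that starts the trophectoderm programme, had levels of 9.94, 9.69 and 9.81 in negative and 10.01, 9.43 and 9.73 in positive arrays. The lowest array was positive array 2, and the groups overlapped. Its difference of -0.09 (SE 0.17) did not pass (limma adjusted p = 0.967), and it was 0.04 with array weights and 0.06 without positive array 2.

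Tfap2c, the AP-2 gamma factor that acts in trophectoderm and in germ cell precursors, was the single factor whose groups did not overlap. Its level was 10.08, 10.47 and 10.004 in negative and 9.93, 9.74 and 9.92 in positive arrays, so every positive array lay below every negative array. Over all genes 7.15% were lower and 4.08% higher without overlap, against 1 of 10 factors lower and 0 higher. The mean was 9.86 ± 0.10 over the 3 positive arrays (SD, n = 3) and 10.18 ± 0.25 over the 3 negative ones (SD, n = 3). At -0.32 (SE 0.15) its log2 difference did not pass (limma adjusted p = 0.910). Most of it lay in pair 2, at -0.73, against -0.15 in pair 1 and -0.08 in pair 3. Without both arrays numbered 2 it was -0.12, without negative array 2 it was -0.18, and array weights gave -0.12. Its relative Tfap2a differed by 0.09 (SE 0.13).

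Ascl2, a basic helix-loop-helix factor of the spongiotrophoblast that is expressed from the maternal allele, was higher in the positive array of every pair. Its log2 level was 8.43, 8.06 and 8.82 in negative and 8.76, 8.27 and 9.20 in positive arrays. The order 3, 1, 2 was the same in both groups, and the groups overlapped. The difference of 0.31 (SE 0.28) did not pass (limma adjusted p = 0.917), with pairs at 0.33, 0.22 and 0.38. Leaving out a single array moved it, to 0.08 for positive array 3, to 0.12 for negative array 2 and to 0.54 for positive array 2, and array weights gave 0.14.

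Hand1, a basic helix-loop-helix factor of trophoblast giant cells and of the heart, stood at 8.65, 8.34 and 9.25 in negative and at 8.58, 8.81 and 8.61 in positive arrays. Negative array 3 was the highest and negative array 2 the lowest, with all positive arrays between them. The difference of -0.08 (SE 0.23) did not pass (limma adjusted p = 0.975), and the pairs were -0.07, 0.46 and -0.64. It was -0.54 with array weights and 0.17 without negative array 3.

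Esx1, an X-linked homeobox factor of the placenta, had levels of 7.31, 8.96 and 7.50 in negative and 7.31, 9.10 and 6.96 in positive arrays. Both arrays numbered 2 were high, and the other 4 lay between 6.96 and 7.50. The difference of -0.13 (SE 0.64) did not pass (limma adjusted p = 0.986), and its 95% interval of -1.66 to 1.39 was the widest of the 10. Leaving out negative array 2 gave 0.38, and leaving out positive array 2 gave -0.79.

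**Figure D2:**
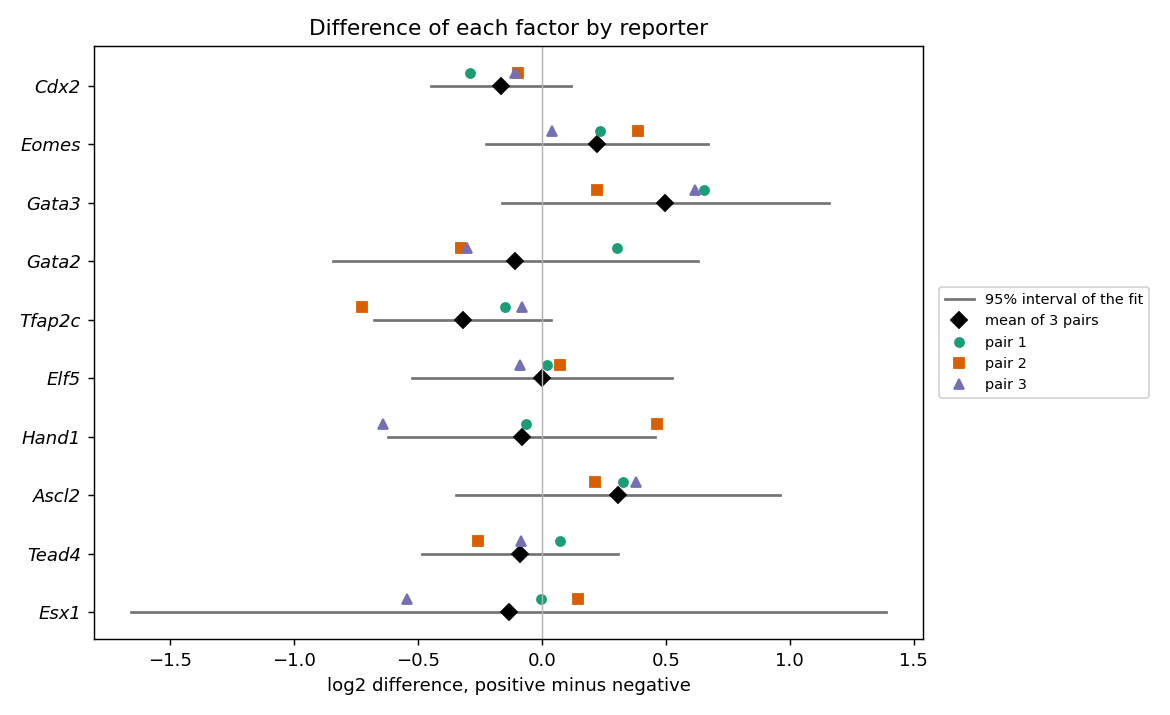
Log2 difference, positive minus negative, of each factor (horizontal axis). Diamonds are the mean over the 3 pairs, bars the 95% interval of the limma fit for that gene alone, and coloured symbols the 3 same-numbered pairs. All 10 bars cross 0, and the pairs of Gata3, Eomes and Ascl2 all lie above 0 and those of Cdx2 and Tfap2c all below.

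Taken as same-numbered pairs, 3 of the 10 factors (Eomes, Gata3 and Ascl2) were higher in all 3 pairs, against 15.1% of all genes. Cdx2 and Tfap2c were lower in all 3, against 23.7% of all genes. When the replicate number entered the fit as a block, no factor passed either. At an unadjusted p under 0.05 in that fit there were 2 factors higher, against 5.4% of all genes, and 0 lower, against 6.61%. These were Gata3 (limma block unadjusted p = 0.0065, adjusted p = 0.396) and Ascl2 (unadjusted p = 0.016, adjusted p = 0.399). With the block the 95% interval, again for each gene alone, ran from 0.20 to 0.79 for Gata3, from 0.08 to 0.53 for Ascl2 and from -0.51 to 0.24 for Esx1. It lay within 2-fold in both directions for all 10 factors and included 0 for 8, all but Gata3 and Ascl2. The two-cell genes had their largest median difference in pair 2, at 5.81, then in pair 1, at 2.88, and pair 3, at 1.36. In that order of pairs the median over the 10 factors was 0.11, 0.05 and -0.09, with 6, 6 and 3 factors higher. Whether the factors follow the two-cell genes by pair was not tested, and 3 pairs, each also a replicate number, could not show it.

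For 9 of the 10 factors, all but Tfap2c, arrays numbered 2, averaged over the groups, stood further from the rest than positive from negative arrays. Over all genes 66.7% did so. Hand1 counted although its deviations were opposite, -0.61 in negative and 0.21 in positive arrays. For Cdx2 the values were close in size, 0.18 by number and -0.16 by reporter. A limma F-test of the number, in a model that also held the reporter, called 2 of 10 factors at an adjusted p under 0.05, against 5.65% of all genes. At an unadjusted p under 0.05 it called 7 of 10, against 24.7%. The factors called were Esx1 (adjusted p = 0.0175) and Ascl2 (adjusted p = 0.0330). Replicate 2 stood apart from the mean of replicates 1 and 3 in opposite directions for these genes. Esx1 was higher there by 1.55 in negative and 1.97 in positive arrays, while Ascl2 differed by -0.57 and -0.71. Ascl2 was not set apart by replicate 2 alone, since its replicate 3 was the highest array of each group, at 8.82 and 9.20. The contrast of replicate 2 was chosen after the values were seen.

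Of the other factors, Cdx2, Eomes, Gata3 and Gata2 were also above the other replicates in array 2 of both groups, and Elf5 and Tead4 below. With Esx1 and Ascl2 that made 5 of 10 higher and 3 lower in both groups, against 28.6% and 40.9% of all genes. Gata2 differed by 0.91 and 0.59 and Elf5 by -0.56 and -0.45, in negative and positive arrays. Hand1 and Tfap2c went opposite ways in the groups. The replicate 2 contrast, averaged over the groups, exceeded the reporter difference in size for 66.7% of all genes, against those 9 of 10 factors. Its median size was 0.46 over the factors and 0.19 over all genes, and the median size of the reporter difference was 0.15 and 0.12. The count of 2 factors called by number rested on single arrays. It was 0 with array 1 of either group left out, and then 0 of all genes were called. It was 1 with array 3 of either group left out, with 271 genes called when that array was a negative one and 156 when it was positive. With array 2 of the negative group left out it was 6 (4571 genes), and with array 2 of the positive group left out it was 5 (3341 genes).

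**Figure D3:**
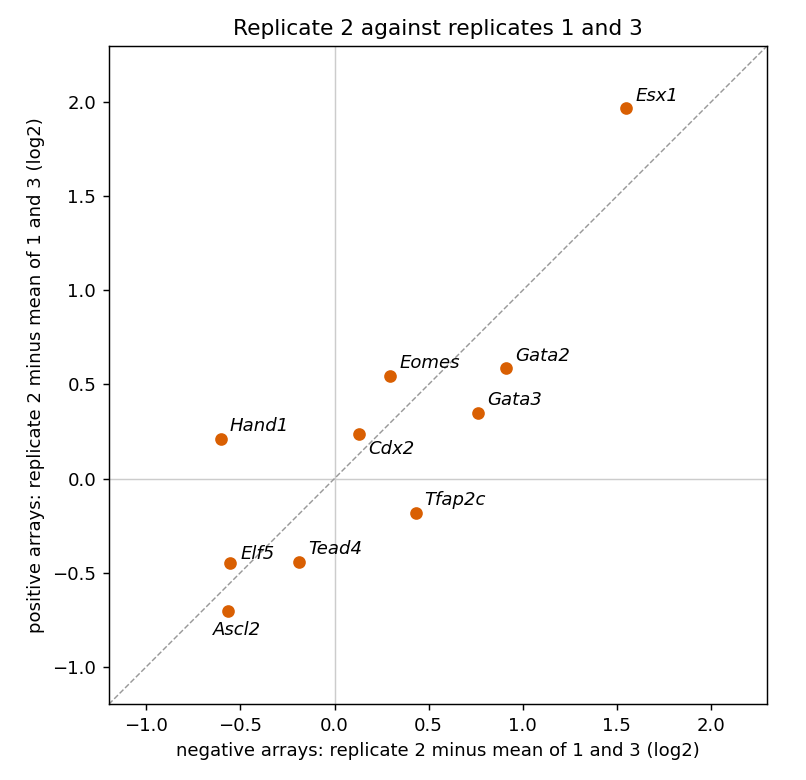
Replicate 2 minus the mean of replicates 1 and 3 on the log2 scale, in negative arrays (horizontal axis) and positive arrays (vertical axis), 1 point per factor. The dashed line marks equal values, Esx1 lies at the top right at 1.55 and 1.97, and Ascl2, Elf5 and Tead4 lie below 0 on both axes.

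Markers of other cell types were set against the replicate number in the same way. Among fibroblast markers, Acta2, the smooth muscle actin, was higher in replicate 2 by 2.44 in negative and 3.26 in positive arrays. The F-test called Acta2 and Tagln, 2 of the 12 measured members, against 5.65% of all genes. In all, 5 of the 12 were higher in replicate 2 of both groups and 3 lower, against the 28.6% and 40.9% of all genes, and the mean level of the list was 7.85, 8.31 and 7.98 in negative and 7.63, 8.19 and 7.51 in positive arrays 1, 2 and 3. Col1a1, a fibrillar collagen, differed there by -0.09 and 0.48. Of the primitive endoderm list 4 of 17 were higher in both and 6 lower, with means of 7.98, 7.75 and 7.86 in negative and 7.66, 7.75 and 7.49 in positive arrays. The F-test called 4 of these 17, 2 of 12 pluripotency factors and 0 of 11 mesoderm genes. Of the pluripotency factors 0 were higher in replicate 2 of both groups and 8 lower. A log2 array value has no zero, so no marker could be read as absent. The part of these cell types in the levels of the factors was not tested.

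Other genes of the trophectoderm programme were then compared. Of 27 measured trophectoderm, trophoblast and placental genes 0 passed in either direction, 8 were higher and 19 lower, with a median of -0.14. The list held 30 genes, and Gcm1, Prl3d1 and Prl2c2 were not among the genes compared. Plet1, a surface protein of trophoblast stem cells, was 10.88, 10.21 and 10.88 in negative and 11.41, 10.90 and 11.21 in positive arrays, with each positive array above every negative one. Its difference of 0.52 (SE 0.22) did not pass (limma adjusted p = 0.910). Of the 27 genes 3 were higher without overlap and 1 lower, against 4.08% and 7.15% of all genes. Besides Plet1 these were Id2 at 0.45 (SE 0.14) and Syna at 0.47 (SE 0.15), both higher, and Esrrb at -0.36 (SE 0.17), lower, named after their values were seen. Cdh3, placental cadherin, differed by 0.36 (SE 0.23), and Fgfr2, the receptor for the growth factor of trophoblast stem cells, by -0.23 (SE 0.25). The keratins of simple epithelium that fill trophectoderm cells differed by -0.28 (SE 0.71) for Krt8, 0.10 (SE 0.70) for Krt18 and -0.54 (SE 0.61) for Krt7. Tpbpa, a marker of spongiotrophoblast, lay between 3.83 and 4.05 on all 6 arrays, among the dimmest 30% of genes, with a difference of 0.09 (SE 0.10).

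By replicate number 6 of these 27 genes were called, against 5.65% of all genes, all higher in replicate 2 of both groups. They included Krt18, by 1.55 in negative and 2.20 in positive arrays, and Krt7, by 1.40 and 1.86. Krt8 differed in the same direction, by 1.31 and 2.27, and did not pass (adjusted p = 0.0631).

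Hippo pathway genes, which set whether Yap1 and Tead4 can act, had 0 of 20 measured members past the reporter test, 9 higher and 11 lower, with a median of -0.04. Yap1 was 10.50, 11.10 and 10.79 in negative and 10.54, 11.26 and 10.88 in positive arrays, a difference of 0.10 (SE 0.23). Wwtr1, the second coactivator, differed by -0.03 (SE 0.32), the kinase Lats2 by 0.18 (SE 0.35) and the junction protein Amot, which holds Yap1 outside the nucleus, by 0.11 (SE 0.54). The relatives Tead1, Tead2 and Tead3 differed by -0.04 (SE 0.29), -0.34 (SE 0.19) and -0.29 (SE 0.20). By replicate number 7 of the 20 were called, against the same 5.65% of all genes, all higher in replicate 2 of both groups, among them Amot by 1.20 and 1.66, Wwtr1 by 0.90 and 0.78 and Tead1 by 0.79 and 0.71, in negative and positive arrays. The target genes Ankrd1 and Ccn1 were called too, at 1.92 and 1.75 for Ankrd1 and 0.89 and 0.82 for Ccn1. By reporter Ankrd1 differed by -0.63 (SE 0.66) and Ccn1 by -0.28 (SE 0.35), both lower in all 3 pairs. Ccn2, named after its values were seen, differed by 0.25 (SE 0.22) and was higher in all 3. Of the 20 genes 5 were higher and 5 lower in all 3 pairs, against 15.1% and 23.7% of all genes.

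The closest relatives of the factors, with the same kinds of DNA-binding domain, had 0 of 24 past the reporter test, 5 higher and 19 lower, with a median of -0.14. Over all genes 39.8% were higher. The lists share genes, since Tead1, Tead2 and Tead3 are also Hippo genes and Gata4 and Gata6 are also primitive endoderm genes. Pluripotency factors that oppose trophectoderm had 0 of 12 past the reporter test, 5 higher and 7 lower, with a median of -0.05. Primitive endoderm genes had 0 of 17 past it, 4 higher and 13 lower, with a median of -0.28, and Sox17, an endoderm factor, differed by -0.39 (SE 0.17). Mesoderm genes, of interest because Eomes and Hand1 are used in mesoderm as well, had 0 of 11 past it, 1 higher and 10 lower, with a median of -0.09, and Mixl1 differed by -0.26 (SE 0.15). Fibroblast genes had 0 of 12 past it, 4 higher and 8 lower, with a median of -0.23. Their differences ran from -1.16, the lowest of all genes, to 0.55. Of the 12, 2 reached 2-fold, against 105 of all 19938 genes. With the replicate block, at an unadjusted p under 0.05, 6 fibroblast genes were lower and 1 higher, against 6.61% and 5.4% of all genes. In that fit 6 primitive endoderm genes were lower and 0 higher. Of the 27 trophoblast and placental genes 5 were lower and 4 higher, and of the 20 Hippo genes 2 and 2. Of the 24 relatives 2 were lower and 2 higher, of the 11 mesoderm genes 1 and 0, and of the 12 pluripotency factors 0 and 0. What these genes say about the sorted cells was not tested.

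**Figure D4:**
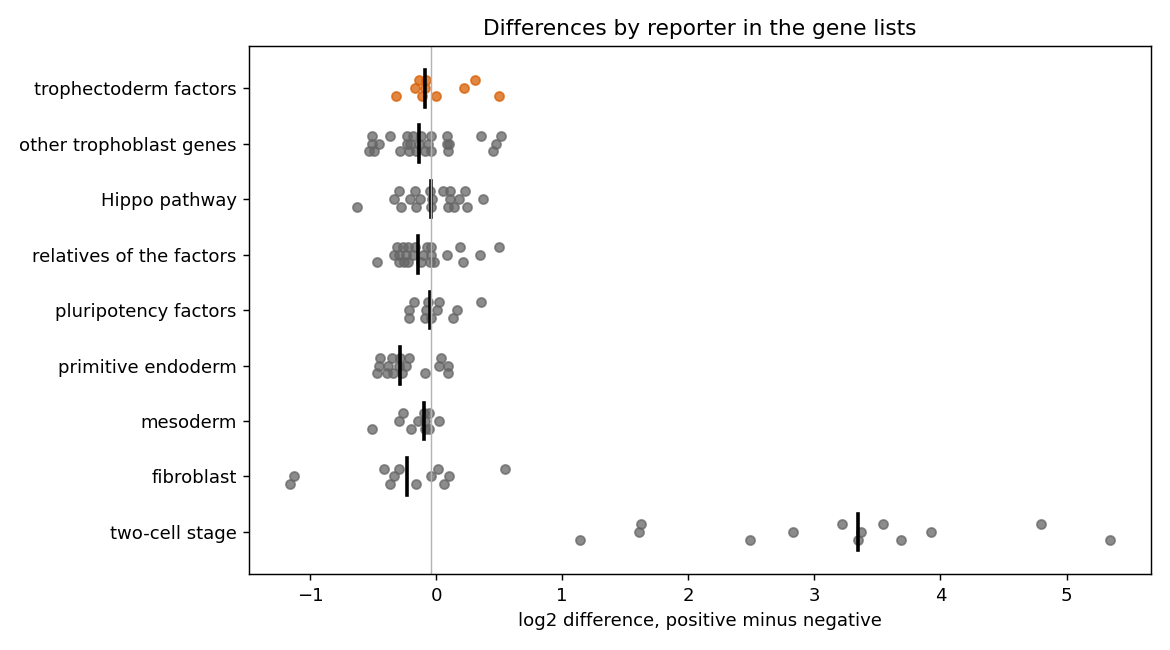
Log2 difference, positive minus negative (horizontal axis), of each measured gene in 9 lists, 1 point per gene, with a thick bar at the median of the list and a thin line at the median of all genes, -0.04. The trophectoderm factors lie between -0.32 and 0.50, and the two-cell genes, with a median of 3.34, lie above all of them.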

How the data were processed

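Per the labels' protocols, 100 ng of RNA from each of 6 sorted ES cell samples was biotin-labelled and hybridised to an Affymetrix whole-transcript array. The log2 values deposited by the authors came from RMA in Affymetrix Expression Console, per the submitters' processing notes. RMA corrects background, equalises quantiles between arrays and summarises probes, so it compresses dim genes and removes differences in total RNA. Its version and the genome build are not stated. Array medians lay between 6.95 and 7.04 over 35556 probesets. Precision is limited by the number of arrays.

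Platform annotation gave 21789 probesets 1 symbol, 1621 several and 12146 none. The brightest probeset stood for a gene with several (999 genes), which left 19938 genes and no filter on dim ones. Ctgf and Cyr61 were matched by older symbol to Ccn2 and Ccn1. Groups and replicate numbers came from the titles. The reporter comparison used lmFit and eBayes of limma 3.58.1 under R 4.3.3 (two-sided, Benjamini-Hochberg over all genes, threshold 0.05). It was also run on simulated data with equal, independent noise for all genes and no shared effect of replicate number. That run does not show how the comparison performs on arrays that deviate together by number. Across genes, same-numbered arrays of the groups deviated together from their group means (r = 0.55, 0.55 and 0.46), so the numbers were taken as pairs from the data. Their meaning is not labelled. The factors and lists were chosen with earlier results of these data known, and other named genes were picked by role, plus some past the replicate number test. Motifs were searched in RefSeq promoter windows. Alternatives were median centring, a second quantile normalization, leaving out the dimmest 30% of genes, all probesets, array weights, a trended robust variance, the replicate block, and leaving out each array or pair.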

Additional observations from a re-analysis of the deposited data

How the results depend on the processing

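No factor passed the reporter test in any of 16 alternatives (159 values, since Elf5 drops out with the dimmest 30% of genes; smallest limma adjusted p 0.0760, for Gata3 with array weights). The replicate block left 0 factors and 0 genes past the test and changed no call. The sign turned in 17 values. With all arrays kept, these were Elf5 at -0.0078 with median centring, and Gata2 at 0.023 and Tead4 at 0.042 with array weights. Leaving out an array or a pair gave -0.31 to 0.20 for Gata2, -0.18 to 0.15 for Elf5, -0.35 to 0.20 for Hand1, -0.23 to 0.058 for Tead4 and -0.79 to 0.38 for Esx1. Cdx2, Eomes, Gata3, Tfap2c and Ascl2 kept their sign in every alternative run. Without an array or pair, factors without overlap numbered 0 to 2 higher and 1 to 4 lower, and those lower in every remaining pair 2 to 4. Leaving out arrays can only raise such counts. Their shares over all genes were not computed for these settings, so the counts are not read as results about the factors. By replicate number, 0 to 6 factors and 0 to 4571 genes were called. Where an array is left out there, its number keeps 1 array, taken to vary like the others. With 3 arrays a group the precision is limited, and the depth of signal over background is not known for RMA values.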
